A study of Homo sapiens with 2 samples.

Results

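The mitochondrial carriers of solute carrier family 25 (SLC25) were followed in cells labelled HGC-27, an established line of gastric carcinoma, with and without knockdown of the RNA helicase DDX5. Members were all genes in the deposited table whose Entrez number maps to an NCBI symbol of SLC25A and a number, together with UCP1, UCP2 and UCP3. RefSeq holds 51 such genes and 49 of them were among the 16021 genes and gene models of the table. SLC25A2 and SLC25A31 were not analysed here. The line is labelled gastric adenocarcinoma and was grown in RPMI-1640 with 10% fetal bovine serum. Cells of both groups carried a lentivirus, were selected with puromycin from 48 h after transduction, and were collected a week later. The control virus held a non-targeting shRNA and the other a DDX5 shRNA. Each group had 1 library, here called the control and the knockdown library, so every difference below sets 2 libraries side by side. No p-value or error could be had, and the difference between cultures of the same cells was not measured. Levels are FPKM, fragments scaled to transcript length and to library size, which can be compared between genes because they are per length. Values are given in the order control, knockdown.

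SLC25 carriers sit mostly in the inner mitochondrial membrane, where they exchange nucleotides, phosphate, amino acids, carboxylates and cofactors between the cytosol and the matrix. Each is built from repeats of a short transmembrane unit and is made in the cytosol, then handed by the TOM complex and small TIM chaperones to the TIM22 insertase. The uncoupling proteins belong to the same family and dissipate the proton gradient or move metabolites. In tumour cells the carriers link glycolysis, the citric acid cycle and the synthesis of amino acids, lipids and nucleotides.

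The DDX5 transcript was at 170.5 FPKM in the control and 50.78 FPKM in the knockdown library, 29.8% of the control level. Fragment numbers below are approximations from a depth estimated from the spacing of low values. Of 10 gastric epithelial markers, 7 were listed, and EPCAM, CDH1, KRT18, CLDN4 and CLDN18 were below 1 FPKM in both libraries. KRT8 was at 5.24 and 1.31 FPKM, a log2 ratio of -1.43, and MUC1 at 6.12 and 7.41 FPKM. The summed level of the 7 was 12.49 and 9.68 FPKM. The fibroblast markers COL1A1, LUM and DCN were abundant in both libraries, and the summed level of the 4 listed fibroblast markers was 465.69 and 521.95 FPKM. DCN stood at 68.13 and 140.68 FPKM, and PDGFRB, the fourth, at 0.56 and 0.28 FPKM. Most epithelial markers of the labelled cell type were thus near 0 beside abundant fibroblast markers, and the identity of the line was not tested. Of 3 leukocyte markers only CD68 was listed, at 1.29 and 1.02 FPKM. Of 3 endothelial markers only VWF was listed, at 0.01 and 0.05 FPKM. The part of these markers in the carrier values was not tested. In a bulk library, fewer cells of a type and less RNA per cell cannot be told apart.

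Of the 49 carriers, 39 averaged at least 1 FPKM between the libraries and were compared as ratios. The log2 ratio was taken on FPKM + 1, knockdown over control, a scale that understates the differences of low genes. One carrier, UCP2, was 2-fold or more higher, and no carrier (0 of 39) was 2-fold or more lower. Of all 11413 genes past the same filter, 478 (4.19%) reached 2-fold on the higher side and 258 (2.26%) on the lower side, and 379 on each side when both libraries were set to equal totals. The median log2 ratio of the carriers was 0.055, beside 0.024 for all genes. The ratio was above 0 for 23 of the 39 carriers (59.0%), beside 52.0% of all genes. At equal totals, 16 of 39 carriers and 43.3% of all genes were above 0, since that scaling moves all ratios down. The carriers' counts were thus close to the background.

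**Figure D1:**
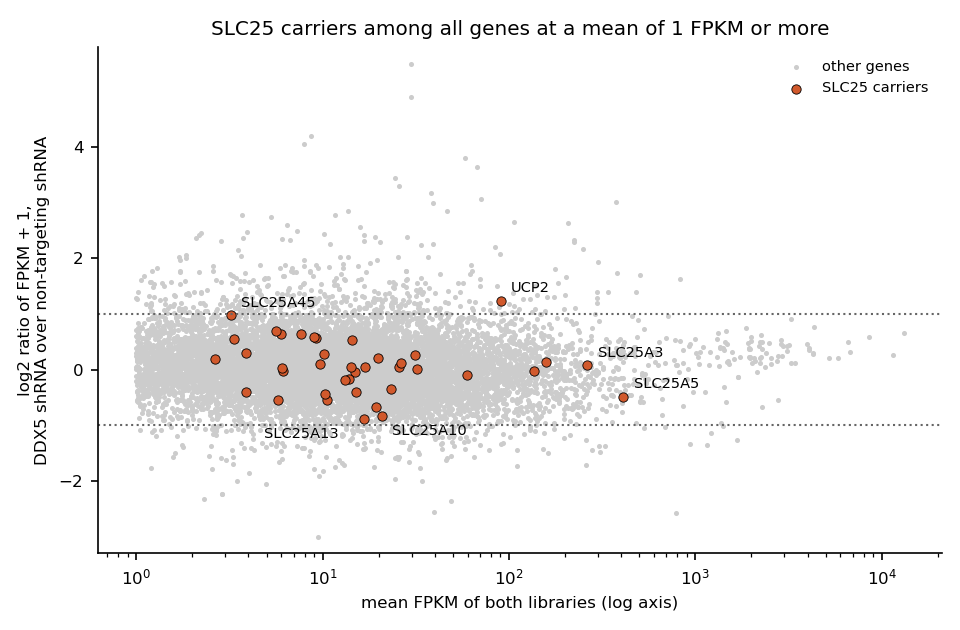
Mean FPKM of both libraries (horizontal, log axis) against the log2 ratio of FPKM + 1, DDX5 shRNA over non-targeting shRNA (vertical), for 11413 genes. Orange points are the 39 SLC25 carriers, dotted lines mark 2-fold, and UCP2 is the only carrier beyond them.

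The range among the carriers ran from -0.89 for SLC25A13 to 1.24 for UCP2. The middle 50% of all genes lay between -0.28 and 0.35, and 20 carriers fell inside it, 9 above and 10 below. At 1.5-fold on FPKM + 1, 6 carriers were higher and 3 lower, while 13.1% and 10.1% of all genes passed the same folds. The 6 were UCP2, SLC25A45, SLC25A25, SLC25A35, SLC25A16 and SLC25A36, the last lying right at the limit of 1.5-fold. The 3 were SLC25A13, SLC25A10 and SLC25A17. Near the 2-fold limit, UCP2 lay inside with a log2 ratio of 1.24 and SLC25A45 just outside with 0.98. Near the filter, SLC25A21 entered with a mean of 2.65 FPKM and SLC25A53 stayed out with 0.91 FPKM.

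Levels spanned a wide range. Only 4 carriers had a mean of 100 FPKM or more, 21 lay between 10 and 100, and 14 between 1 and 10. SLC25A5, SLC25A3, SLC25A6 and SLC25A39 held the first 4 places, in this order, in both libraries. Together they made up 64.8% of the summed carrier FPKM in the control and 59.9% in the knockdown library. The summed level of all 49 carriers was 1572.13 and 1524.83 FPKM, or 0.286% and 0.256% of each library's total. Without UCP2 the sums were 1518.78 and 1397.38 FPKM. Across the 39 carriers the Spearman correlation of the levels was 0.940, beside 0.945 for all genes past the filter. These are correlations across genes of the same pair of libraries, and genes are not independent replicates.

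**Figure D2:**
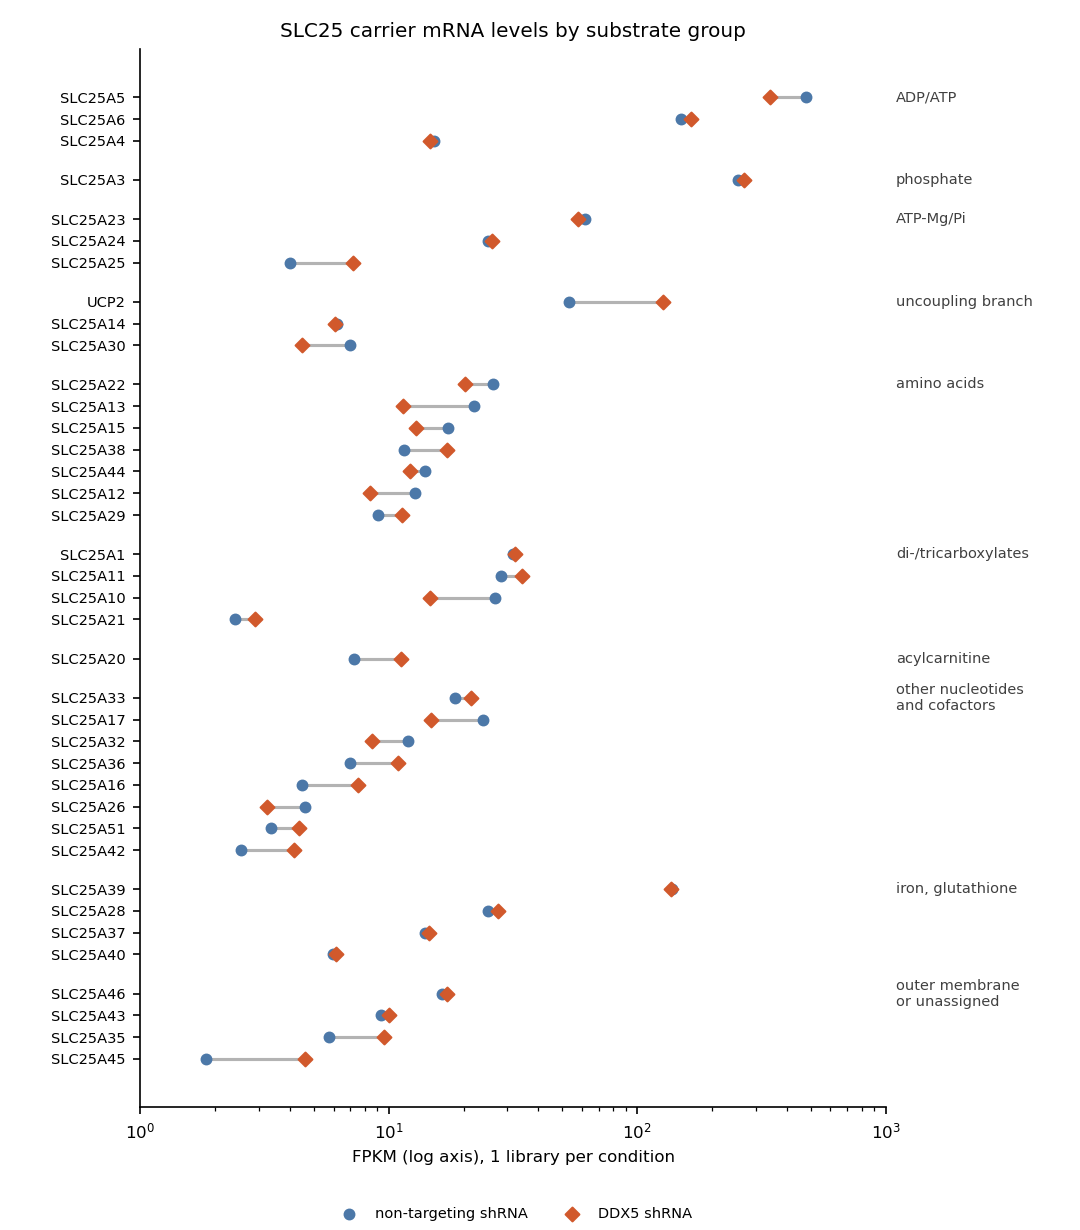
FPKM (log axis) of 38 of the 39 carriers averaging at least 1 FPKM, grouped by substrate, with the non-targeting library as blue circles and the DDX5 shRNA library as orange diamonds. The first 4 carriers by level keep their order, and the widest gaps are those of UCP2 and SLC25A45.

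The ADP/ATP carriers export matrix ATP in exchange for cytosolic ADP. SLC25A5 (ANT2), the isoform typical of proliferating cells, was at 477.38 FPKM in the control and 341.64 FPKM in the knockdown library. That is 71.6% of the control level, a log2 ratio of -0.48, from about 8200 and 5728 fragments. SLC25A6 (ANT3), a widely expressed isoform, measured 149.5 and 165.35 FPKM, with a log2 ratio of 0.14. SLC25A4 (ANT1), the heart and muscle isoform, stood at 15.18 and 14.68 FPKM. The SLC25A5 level was therefore lower while those of its paralogs differed little, and the ratio of SLC25A5 to SLC25A6 was 3.19 in the control and 2.07 in the knockdown library. SLC25A5 made up 74.4% and 65.5% of the summed ADP/ATP carrier FPKM, and SLC25A6 23.3% and 31.7%. The sum itself was 642.06 FPKM in the control and 521.67 FPKM in the knockdown library, a ratio of 0.812. The coding sequences of SLC25A5 and SLC25A6 are 78.7% identical over 894 bases, and 5.69% of the 50-base windows of the SLC25A5 transcript recur in processed pseudogenes. SLC25A5 also shares 15.1% of its exon bases with the opposite-strand gene SLC25A5-AS1, and without a stated strand setting their reads cannot be told apart.

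SLC25A3, the carrier that imports phosphate for ATP synthesis, stood at 254.91 and 270.24 FPKM. Its log2 ratio of 0.08 became -0.03 at equal totals, so no direction can be given. The calcium-regulated ATP-Mg/phosphate carriers adjust the adenine nucleotide pool of the matrix. SLC25A23 stood at 61.57 and 57.5 FPKM and SLC25A24 at 25.09 and 26.1 FPKM, both close to the control level. The opposite-strand gene AL359258.2 covers 13.7% of the exon bases of SLC25A24. SLC25A25 was the least abundant of the 3 past the filter, at 4.02 and 7.16 FPKM, or 1.78-fold higher, from about 202 and 349 fragments. Its share of the summed FPKM of the group was 4.43% and 7.88%. The opposite-strand gene SLC25A25-AS1 covers 13.5% of the exon bases of SLC25A25. SLC25A41 was listed at 0 and 0.05 FPKM.

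In the uncoupling protein branch, UCP2 stood apart from its relatives. UCP2, which exports malate, oxaloacetate and aspartate and can lower the proton gradient, was at 53.35 FPKM in the control and 127.45 FPKM in the knockdown library. This is 2.39-fold higher, from about 1591 and 3691 fragments, and ranked 264 from the highest ratio among 11413 genes. By level it held place 6 of the carriers in the control and place 5 in the knockdown library, with 3.39% and 8.36% of their summed FPKM. None of the 50-base windows of its transcript occurs in another gene, and no exon of another gene overlaps it in the annotation. UCP3, the muscle isoform, lies next to UCP2 in the genome and was listed at 0.3 and 0.16 FPKM, worth about 11 and 6 fragments. UCP1, the brown fat isoform, was listed at 0 and 0.08 FPKM. SLC25A14 (UCP5) stood at 6.2 and 6.08 FPKM. SLC25A30, a kidney-type relative, stood at 7 and 4.48 FPKM, 64.0% of the control level. SLC25A27 (UCP4), a neuronal form, was at 0.05 and 0.03 FPKM. UCP2 thus made up 79.7% of the branch in the control library and 92.2% in the knockdown library.

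RefSeq promoters (GRCh38.p14, 250 bases before to 50 after the gene start) matched 42 of the 49 carriers. The stretch shown for UCP2, the only carrier beyond 2-fold, runs from 212 to 133 bases before the start, at chr11:73983335-73983414 on the minus strand. Capitals mark its 2 CCAAT boxes (letters CCAAT, searched on both strands), the upstream one in reverse orientation.
UCP2: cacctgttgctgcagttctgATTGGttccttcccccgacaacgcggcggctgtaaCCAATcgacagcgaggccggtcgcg

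The letters CCAAT occurred on either strand in 17 of the 33 promoters of carriers past the filter (51.5%), and in 37.4% of 9279 promoters of genes past the filter and 34.6% of all 35116 promoters. The C/EBP-ATF element TGATGCAA, bound by ATF4, occurred in 0 of the 33 and in 0.463% of the promoters of genes past the filter. The ERR half-site TCAAGGTCA and the NRF1 motif occurred in 0 of the 33, and in 0.183% and 2.45% of those promoters. For motifs this rare, 0 of 33 promoters cannot show a lack among the carriers, and none is read from it. All motifs were searched on both strands, and no E-box found here overlaps a CCAAT box. The E-box CACGTG, a site of MYC, USF and related factors, occurred in 6 of the 33 (18.2%), beside 10.4% of promoters of genes past the filter. A match describes letters in the window and says nothing of binding, which was not measured.

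The 6 E-box stretches are shown because this motif was found in a larger share of carrier promoters than of all promoters, by count alone. The same was true of the CCAAT box, for which only the UCP2 stretch is shown. Each is written on the gene's strand with the E-box in capitals. They lie at chr7:96322227-96322272 (minus strand) for SLC25A13, chr1:9539419-9539464 (plus) for SLC25A33, chr3:140941673-140941718 (plus) for SLC25A36 and chr3:39383306-39383351 (plus) for SLC25A38. Those of SLC25A46 and SLC25A51 lie at chr5:110738940-110738985 (plus) and chr9:37904161-37904206 (minus).
SLC25A13: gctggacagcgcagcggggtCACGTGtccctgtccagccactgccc
SLC25A33: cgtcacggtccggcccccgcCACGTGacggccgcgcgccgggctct
SLC25A36: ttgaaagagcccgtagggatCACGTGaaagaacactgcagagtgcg
SLC25A38: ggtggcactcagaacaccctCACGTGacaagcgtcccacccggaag
SLC25A46: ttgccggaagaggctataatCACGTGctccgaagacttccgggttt
SLC25A51: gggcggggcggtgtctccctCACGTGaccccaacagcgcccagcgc

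The log2 ratios of these 6 carriers were -0.89 for SLC25A13, 0.20 for SLC25A33, 0.58 for SLC25A36, 0.54 for SLC25A38, 0.06 for SLC25A46 and 0.30 for SLC25A51. Of the 6, 5 lay above 0 and 1 below, beside 59.0% of the 39 carriers and 52.0% of all genes above 0, and SLC25A46 turned below 0 at equal totals. With 6 carriers nothing is read from this count.

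Amino acid carriers had the lowest median of the 10 substrate groups, some of which held only 1 carrier past the filter. It was -0.35 over 7 carriers past the filter, with 5 below 0 and 2 above, beside 52.0% of all genes above 0. None reached 2-fold. SLC25A12 (aralar) and SLC25A13 (citrin) exchange matrix aspartate for cytosolic glutamate and are the aspartate arm of the malate-aspartate shuttle. SLC25A13 had the lowest ratio of all carriers, at 22.02 and 11.43 FPKM, 51.9% of the control level, from about 997 and 501 fragments. SLC25A12 stood at 12.7 and 8.38 FPKM, 66.0% of the control level. Both paralogs were lower, and their sum was 34.72 FPKM in the control and 19.81 FPKM in the knockdown library, 57.1% of the control level. Their coding sequences are 71.5% identical, and neither transcript shares a 50-base window with another gene.

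The other amino acid carriers pointed both ways. SLC25A22, a glutamate carrier, stood at 26.2 and 20.3 FPKM, and SLC25A15, the ornithine carrier of the urea cycle, at 17.26 and 12.85 FPKM. These are 77.5% and 74.4% of the control level. The opposite-strand gene PANO1, at 1.87 and 1.16 FPKM, covers 10.8% of the exon bases of SLC25A22. SLC25A44, a carrier of branched-chain amino acids, stood at 14.03 and 12.19 FPKM. On the higher side, SLC25A38, which imports glycine for heme synthesis, stood at 11.5 and 17.18 FPKM, 1.49-fold higher. SLC25A29, a carrier of basic amino acids, stood at 9.07 and 11.26 FPKM. The opposite-strand gene AL157871.1 covers 9.30% of the exon bases of SLC25A29. SLC25A18, the other glutamate carrier, was listed at 0.1 FPKM in both libraries, about 3 fragments each. The summed FPKM of the group in the knockdown library was 0.830 times that of the control, and the share of SLC25A38 in it was 10.2% and 18.3%.

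Among carriers of di- and tricarboxylates, 1 of 4 lay away from the rest. SLC25A10, which exchanges malate or succinate for phosphate, stood at 26.84 and 14.68 FPKM, 54.7% of the control level, and held place 9 and place 16 by level. Of its transcript's 50-base windows, 64.1% also occur in AC139530.2, an overlapping protein-coding model on the same strand. That model was not listed under its name among the deposited values, so whether reads were split between the pair is uncertain. SLC25A11, the oxoglutarate-malate carrier and the other arm of the malate-aspartate shuttle, measured 28.37 and 34.36 FPKM, with a log2 ratio of 0.27. It thus pointed the other way from SLC25A12 and SLC25A13. The opposite-strand gene RNF167, at 32.08 and 45.64 FPKM, covers 9.14% of the exon bases of SLC25A11. SLC25A1, which exports citrate for lipid synthesis, stood at 31.73 and 32.1 FPKM and gave no direction that held under rescaling. SLC25A21, a carrier of oxodicarboxylates, stood at 2.4 and 2.89 FPKM. The opposite-strand gene PAX9, at 8.77 and 11.12 FPKM, covers 13.0% of its exon bases and SLC25A21-AS1 15.8%, so its reads cannot be told apart from theirs. SLC25A20, the carnitine-acylcarnitine carrier that admits fatty acids for oxidation, stood at 7.21 and 11.18 FPKM, 1.55-fold higher from about 190 and 286 fragments. SLC25A48, a choline carrier, was listed at 0.13 and 0.19 FPKM.

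**Figure D3:**
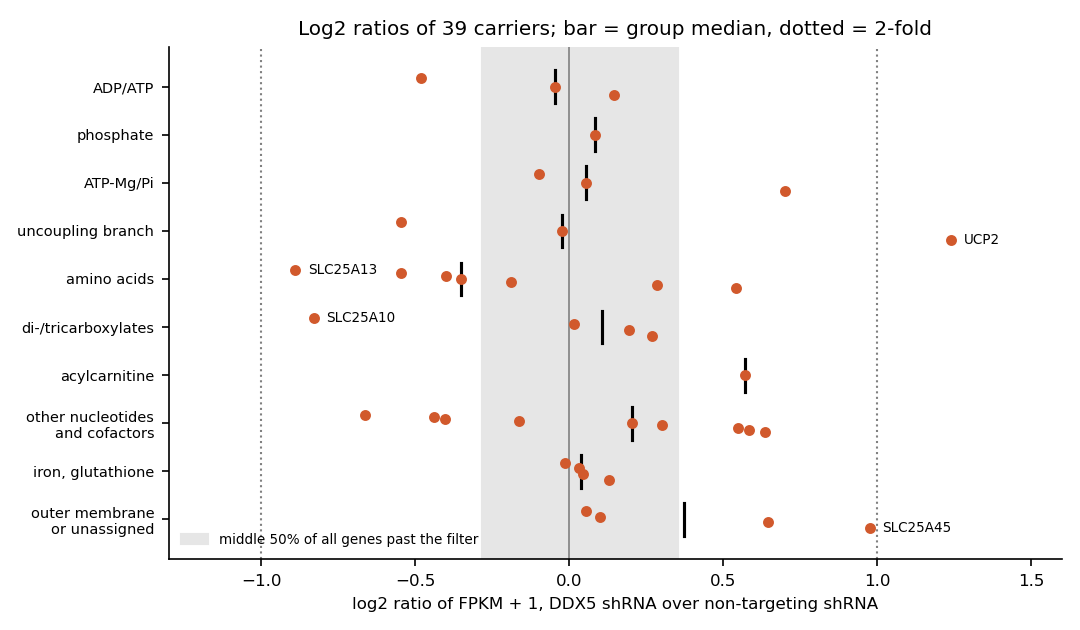
Log2 ratio of FPKM + 1, DDX5 shRNA over non-targeting shRNA (horizontal), for each of the 39 carriers by substrate group, with a black bar at each group's median. The grey band is the middle 50% of all genes, -0.28 to 0.35, and the amino acid group has the lowest median of the 10 groups, -0.35.

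**Figure D4:**
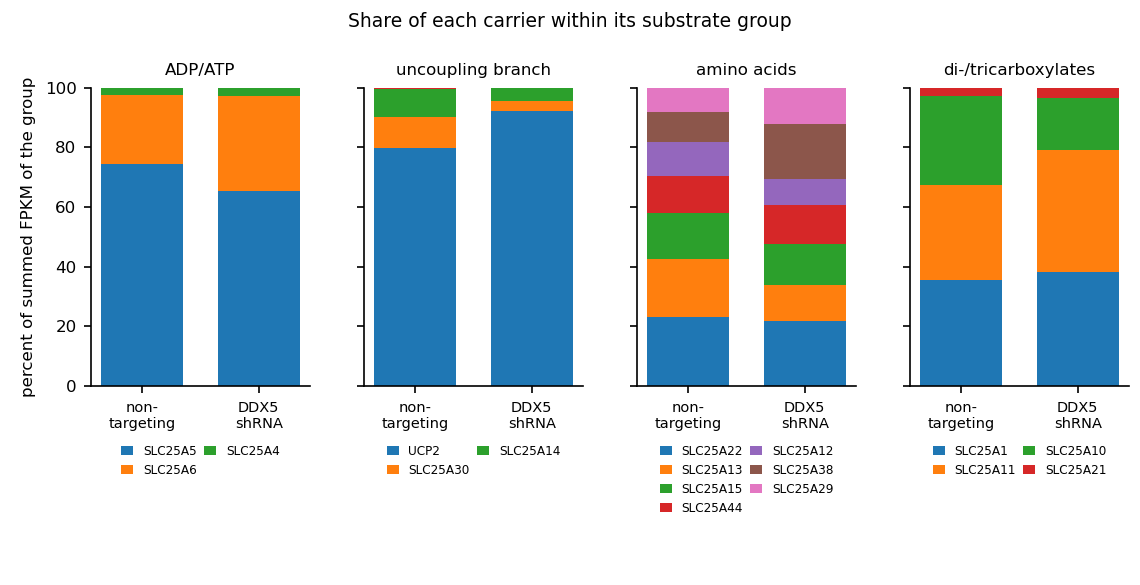
Percent of the summed FPKM of 4 substrate groups held by each carrier, in the non-targeting (left bar) and DDX5 shRNA (right bar) library; carriers under 1% in both libraries are drawn without a label. UCP2 takes 79.7% and 92.2% of its branch, and SLC25A5 74.4% and 65.5% of the ADP/ATP carriers.

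Carriers of other nucleotides and cofactors were found on both sides of 0, with 5 of 9 above it, beside 52.0% of all genes, and a median of 0.20. The pyrimidine nucleotide carriers SLC25A33 and SLC25A36 stood at 18.39 and 21.35 FPKM and at 6.96 and 10.94 FPKM. SLC25A36 was 1.57-fold higher, and the ratio of SLC25A33 to SLC25A36 was 2.64 and 1.95. SLC25A16 and SLC25A42, both linked to coenzyme A in the matrix, stood at 4.47 and 7.49 FPKM and at 2.54 and 4.17 FPKM. They were 1.68-fold and 1.64-fold higher, with about 431 and 697 fragments for SLC25A16 and 114 and 182 for SLC25A42. SLC25A51, the carrier of NAD, stood at 3.36 and 4.37 FPKM. Its near copy SLC25A52, with a coding sequence 97.6% identical, was listed at 0.06 and 0 FPKM, and their reads may have been divided between them.

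Other carriers of this group had lower levels in the knockdown library. SLC25A17, a carrier of the peroxisome rather than the mitochondrion, stood at 23.94 and 14.76 FPKM, 61.7% of the control level. SLC25A26, which imports S-adenosylmethionine for methylation in the matrix, stood at 4.58 and 3.22 FPKM. The opposite-strand gene LRIG1, at 7.5 and 4.45 FPKM, covers 15.5% of its exon bases, and reads of the pair cannot be told apart. SLC25A32, linked to folate and FAD, stood at 11.95 and 8.55 FPKM, 71.5% of the control level. It shares 87.4% of its windows with other genes, above all with the overlapping model AC012213.5, which was not listed under that name. The opposite-strand gene DCAF13, at 29.34 and 21.3 FPKM, covers 11.1% of the exon bases of SLC25A32. The value of SLC25A32 is thus uncertain.

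Carriers of iron and glutathione differed least. The mitoferrins SLC25A28 and SLC25A37, which import iron for heme and iron-sulfur clusters, stood at 25.06 and 27.49 FPKM and at 14.02 and 14.49 FPKM. The glutathione carriers SLC25A39 and SLC25A40 stood at 137.64 and 136.35 FPKM and at 5.97 and 6.13 FPKM. All 4 log2 ratios lay between -0.01 and 0.13, inside the middle 50% of all genes. The ratio of SLC25A39 to SLC25A40 was 23.1 and 22.2, so the paralog balance was nearly the same in both libraries.

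The last group holds SLC25A46, which acts on the outer membrane in fission and cristae upkeep, and carriers without an agreed substrate. SLC25A45 stood at 1.84 and 4.59 FPKM, 2.49-fold higher on the deposited values and 1.97-fold on FPKM + 1, from about 60 and 144 fragments. It ranked 507 from the highest of 11413 genes. SLC25A35 stood at 5.77 and 9.59 FPKM, 1.66-fold higher. The opposite-strand gene RANGRF, at 23.31 and 29.12 FPKM, covers 33.2% of its exon bases, and their reads cannot be told apart without strand. SLC25A46, at 16.44 and 17.13 FPKM, and SLC25A43, at 9.3 and 10.04 FPKM, were close to the control level, with ratios that turned below 0 at equal totals. SLC25A34, SLC25A47 and SLC25A53 were under the filter, at 0.14 and 0.23, 0.04 and 0, and 0.92 and 0.9 FPKM. The highest ratios of this group belonged to its 2 members of lowest level past the filter.

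Genes that import carriers, and other mitochondrial transporters, were described from a list of 40 genes. Of 16 genes of the TOM complex, the small TIM chaperones and the TIM22 insertase, 6 were above 0 and 10 below, with a median log2 ratio of -0.15 and 0 genes at 2-fold, beside 52.0% of all genes above 0, 4.19% at 2-fold higher and 2.26% at 2-fold lower. TIMM22, the insertase channel, stood at 23.73 and 21.28 FPKM, and its kinase-family partner AGK at 17.29 and 17.77 FPKM. TIMM9, a small chaperone of the intermembrane space, measured 32.06 and 64.92 FPKM, 2.02-fold higher on the deposited values and just short of 2-fold on FPKM + 1. Its partner TIMM10 stood at 120.22 and 106.03 FPKM, so the pair differed in direction. TOMM7 and TIMM8B followed on the higher side, with 0.38 and 0.37. TOMM40, the channel of the outer membrane, was the lowest at 104.67 and 59.08 FPKM, 56.4% of the control level. TOMM22 and TIMM8A followed with -0.36 and -0.32.

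Of 24 other mitochondrial transport genes, 22 passed the filter, with a median of -0.20, 10 above 0 and 12 below. One gene reached 2-fold on the higher side and 1 on the lower side, which for 22 genes is near those shares of all genes. SMDT1, the EMRE subunit of the calcium uniporter, stood at 12.1 and 29.55 FPKM, 2.44-fold higher, while the pore subunit MCU stood at 19.17 and 14.85 FPKM. VDAC1, the main pore of the outer membrane, stood at 221.77 and 81.86 FPKM, 36.9% of the control level. Its paralogs VDAC2 and VDAC3 stood at 205.99 and 223.07 FPKM and at 95.26 and 74.78 FPKM. The order of VDAC1 and VDAC2 was thus reversed between the libraries. Both subunits of the mitochondrial pyruvate carrier had a log2 ratio of 0.36, with MPC1 at 33.72 and 43.7 FPKM and MPC2 at 15.12 and 19.64 FPKM. MCUB, a regulator of the uniporter, had 0.39. The serine carrier SFXN1 stood at 47.48 and 33.32 FPKM, and its relative SFXN2 at 15.95 and 9.26 FPKM, 58.1% of the control level.

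**Figure D5:**
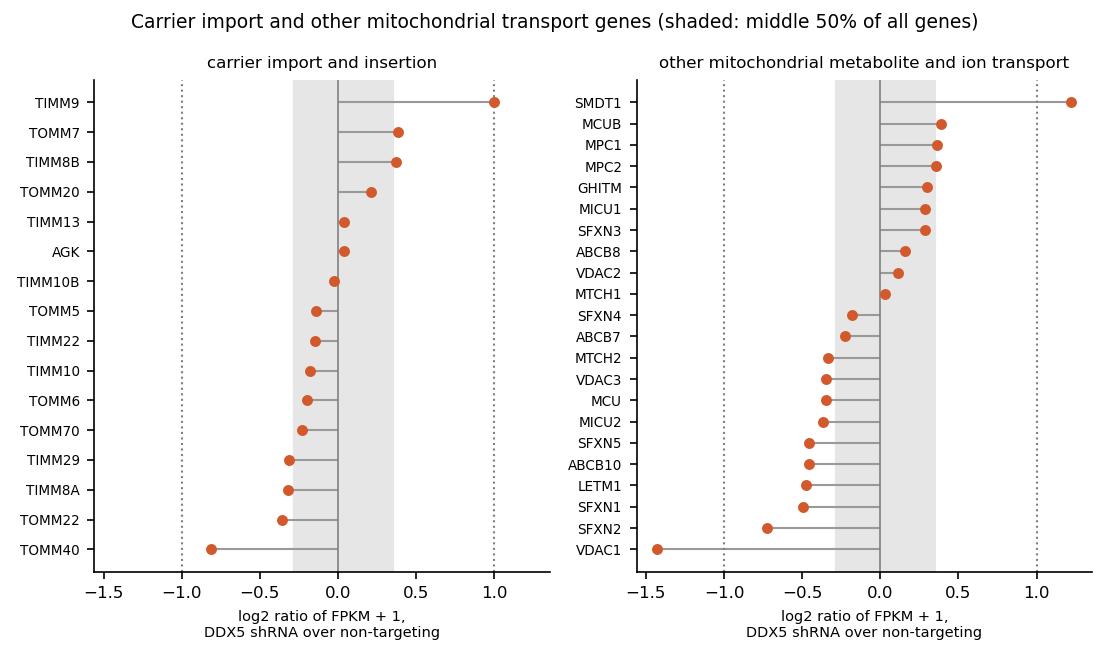
Log2 ratio of FPKM + 1, DDX5 shRNA over non-targeting shRNA, for genes of carrier import (left) and other mitochondrial transport (right) averaging at least 1 FPKM; the grey band is the middle 50% of all genes and dotted lines mark 2-fold. SMDT1 and VDAC1 are the only genes beyond 2-fold.

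In total 10 carriers averaged less than 1 FPKM, and SLC25A53 was the highest of them. SLC25A41, SLC25A47 and SLC25A52 were each listed at 0 in 1 library, and about 1 fragment accounts for the value in the other. No ratio is read from these low carriers.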

How the data were processed

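RNA from 2 libraries was sequenced, 1 per group. The authors deposited 1 table of FPKM, 1 column per library with 2 decimals, per the file headers. Per the submitters' processing notes, hg19 was the build and RSEM 1.2.8, Bowtie2 and HISAT were used, with no roles named. Sources used here give no annotation, strand setting or filter. RSEM divides shared reads by estimation, which can shift values between near copies.

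Columns were assigned by sample title. RefSeq (GRCh38.p14) named 15289 of the 16021 entries. It differs from hg19, so only the promoters, taken from RefSeq itself, carry coordinates. Log2 ratios used a pseudocount of 1 FPKM and genes averaging at least 1 FPKM. No test was run. Groups by substrate, the import and transport lists, the 2-fold limit and the rule for naming genes were chosen with earlier results of these data known. That rule names members past 2-fold, each group's highest and lowest ratio, members under the filter, and up to 3 highest and 3 lowest import and transport genes averaging 5 FPKM or more. The remaining carriers are also given with their values, except 1 that enters the counts, sums and medians and is not reported here. The promoter motifs were chosen after the values were seen.

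Transcript length, windows of 50 bases taken every 10 bases and coding identity came from 1 principal transcript per gene in GENCODE v29, and exon overlap from all exons of each gene there. Depth was estimated from whole steps of FPKM times length in 92 and 89 short genes with 1 annotated transcript. The estimates were about 15.1 and 14.5 times 1e6 fragments (control, knockdown). At the best step, 63.0% and 58.4% of them lay within 0.15 of a whole number, beside 30% for evenly spread values. The choice of low genes assumed a depth near this size, and the step and a length correction were fitted to the same genes, so depth and fragments are approximate and no counting interval is given. A planned comparison of protein motifs was not run. The ratio and depth calculations were run on simulated data without noise, which checks the arithmetic and not the accuracy in these libraries. Ratios were recomputed with a pseudocount of 0.1 or 5, without the filter, with a minimum average of 5 FPKM, at equal totals, and after centring by the median or by a mean trimmed 30% on both sides. The tools were Biopython 1.88, pandas 2.3.3, numpy 2.4.6, scipy 1.17.1 and matplotlib 3.10.9 under Python 3.11.15.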

Additional observations from a re-analysis of the deposited data

How the results depend on the processing

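The single carrier at 2-fold, UCP2, stayed beyond 2-fold under each of the 7 alternatives named in the processing summary, and 0 carriers were 2-fold lower under any of them. SLC25A13 came just short of 2-fold lower at equal totals, with a log2 ratio of -0.997, so that count of 0 rests on a narrow margin. Over all genes, 743 were 2-fold higher and 390 lower with a pseudocount of 0.1, 194 and 102 with 5, and 478 and 258 with 1. With a pseudocount of 0.1 there were 2 carriers at least 2-fold higher, the second being SLC25A45, and 1 import gene, TIMM9. With a pseudocount of 5 the log2 ratio of SLC25A45 was 0.49. At equal totals the median of all genes was -0.078 in place of 0.024, and the carriers' median was -0.056. There, carriers above 0 numbered 1 of 3 for ATP-Mg/phosphate, 0 of 1 for phosphate, 1 of 4 for iron and glutathione, and 2 of 4 for the outer membrane or unassigned group. Without a filter, 2 acylcarnitine and choline carriers and 2 of 6 in the uncoupling branch were above 0. At a mean of 5 FPKM, 3 of 6 carriers of other nucleotides and cofactors were. The smaller number follows from the fewer genes tested. Of 268 single-carrier values, 9 in 7 carriers differed in sign from the reported one, all with small ratios: SLC25A1, SLC25A3, SLC25A24, SLC25A37, SLC25A40, SLC25A43 and SLC25A46. Leaving out carriers with 20% or more shared windows, chosen after seeing the data, left 35 carriers and a median of 0.055. A move of a single carrier was judged against a robust SD of 0.47 over all genes, as no replicate spread exists. A group median was judged against that SD reduced for the number of genes, and a count by its ratio to the reported count. No paired analysis was possible because each group has 1 library. Low carriers are limited by depth, with about 60 fragments for SLC25A45 in the control library.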
